A study of Mus musculus with 9 samples.

Results

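The comparison described here sets the colon of mice given azoxymethane (AOM), dextran sodium sulfate (DSS) and oral vanillin against the colon of untreated mice, and asks which genes still differ from the untreated colon under vanillin. Its members are 6 of the 9 arrays of the series, the 3 labelled Vanillin and the 3 labelled Mock. All came from female BALB/c mice. Mock mice were untreated. Vanillin mice received 12.5 mg/kg AOM by intraperitoneal injection on day 1, and from day 8 drank 2.5% DSS for 5 days and then plain water for 16 days. That DSS cycle was followed by 3 additional cycles, and vanillin was given orally at 100 mg/kg for 91 days. The 3 Sham arrays, from mice given the same AOM and DSS without vanillin, are used to say where a Vanillin level lies. They also enter the fit that estimates the spread, and the choice of some genes named below. AOM and DSS are shared by Vanillin and Sham, so in the comparison with Mock the effects of vanillin and of AOM/DSS cannot be told apart. Whether 3 arrays of one group stand for separate mice, pooled mice or repeat hybridisations is not stated in the labels, so the p-values below measure the spread between arrays, which may be technical.

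AOM is a carcinogen that alkylates DNA in the colon epithelium, and DSS is a sulfated polysaccharide that injures the same epithelium and brings on colitis. Repeated DSS after AOM gives inflammation-driven tumours in the distal colon, commonly with activated Wnt/β-catenin signalling, in which β-catenin enters the nucleus and drives genes together with TCF/LEF factors. Vanillin is the aromatic aldehyde of vanilla. The title of the series names the proteasome, nuclear factor-κB (NF-κB) and mitogen-activated protein kinases (MAPK). NF-κB is held in the cytoplasm by IκB proteins until the proteasome degrades them.

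Each value is the brightness of 1 of 26423 oligonucleotide probes after hybridisation of Cy5-labelled amplified RNA. A change is the difference of group means of log2(intensity + 16), and a probe is called where limma's moderated test across all probes gave a Benjamini-Hochberg adjusted p under 0.05. The arrays of a group correlated at r = 0.995 to 0.998 over all probes, Mock with Vanillin arrays at 0.969 to 0.973, Mock with Sham at 0.926 to 0.929 and Sham with Vanillin at 0.964 to 0.967. Between 19.86% and 20.11% of the probes of an array read below an intensity of 50, where the added 16 shrinks a change. The scale ends near 65509, so that a change in a probe close to it may be understated.

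The tissue label was checked first against marker genes of the colon and of its neighbours. The epithelial genes Epcam, Lgals4 and Krt19 were bright and not called between Vanillin and Mock, at 0.02, 0.04 and 0.11. The first 2 were near the top of the scale. These genes belong to a colonocyte list of 26, of which 4 were called higher, 12 lower and 10 not called. They therefore do not stand for the whole list. Markers of skin were also bright. The keratin gene Krt1, of the outer layers of epidermis, read 51882, 49845 and 49642 in Mock, 46, 43.8 and 41.9 in Sham, and 26012, 23878 and 24193 in Vanillin. Adipoq, the fat cell hormone adiponectin, read 15812, 15145 and 15508 in Mock, 130.2, 119.8 and 117 in Sham, and 13099, 13495 and 13366 in Vanillin. Acta1, the actin of skeletal muscle, read 34927, 35708 and 35264 in Mock, 1047, 993 and 1019 in Sham, and 21503, 22568 and 24752 in Vanillin. All 3 genes had their lowest arrays in Sham and their highest in Mock, and no 2 groups overlapped. The summed intensity of 29 squamous epithelium markers was 1010692 to 1024206 in Mock, 42190.0 to 42817 in Sham and 604799 to 653328 in Vanillin, with 9 of the 29 below an intensity of 50 in Sham and 0 in the other groups. Summed intensities of 21 hair follicle markers were 145196 to 151189 in Mock, 6698 to 7145 in Sham and 77873 to 80233 in Vanillin, those of 15 fat cell markers 148743 to 149917 in Mock, 27234 to 28200.0 in Sham and 120361 to 123328 in Vanillin, and those of 13 skeletal muscle markers 185711 to 194721 in Mock, 4812 to 4965 in Sham and 68358 to 72506 in Vanillin. Mock and Vanillin RNA thus held such transcripts at levels far above Sham, with less in Vanillin than in Mock, and their part in the results below was not tested. In whole tissue, fewer cells of a type and less RNA per cell cannot be told apart.

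**Figure D1:**
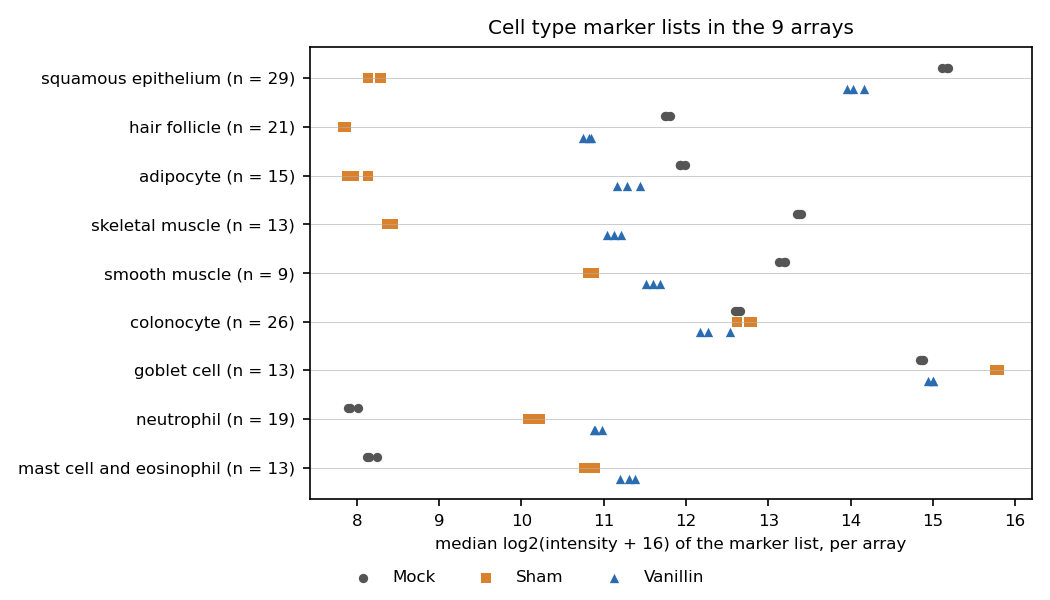
Median log2(intensity + 16) of 9 marker lists in each of the 9 arrays, with 1 point per array and colour and shape giving the group. Squamous epithelium, hair follicle, fat cell and skeletal muscle medians are lowest in the Sham arrays and lie between Sham and Mock in the Vanillin arrays, whereas neutrophil and mast cell medians are lowest in Mock and highest in Vanillin.

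Vanillin colon differed from untreated colon in 13404 of 26423 probes (50.7%). Of these, 6473 probes were higher (24.5% of all) and 6931 lower (26.2%), and the Mock and Vanillin arrays did not overlap for 60.4% of all probes. A change of at least 1 on the log2 scale was found in 972 probes called higher (3.68%) and 1059 called lower (4.01%). Each named gene was then read from its brightest probe. Over 17742 named genes, 4754 (26.8%) were called higher and 5057 (28.5%) lower with a median change of -0.0012, and these shares are the background for every list below. In Vanillin minus Sham, 3081 named genes (17.4%) were called higher and 6234 (35.1%) lower. That comparison shares the Vanillin arrays with Vanillin minus Mock, so its values are set beside the others without being counted as a second observation. Its median over named genes was -0.11, and became 0.0014 when arrays were centred on a trimmed mean, so changes against Sham of about that size are not read as a direction. Within each list, members that moved against the rest are named after their values were seen. Where a list has 0 called in a direction, limma's unadjusted p under 0.05 gave 0 as well, except for 1 neutrophil marker below Sham. Where the larger of a list's counts was over 1.5 times smaller when a change had to exceed log2(1.5) (limma's treat), the numbers called higher and lower past that minimum change are given with it.

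The 12 largest increases over untreated colon included genes known from mast cells, neutrophils, epithelial defence and matrix breakdown. Mcpt2, a protease of mucosal mast cells, read 55, 50.6 and 51.1 in Mock and 25790.2, 27887 and 28822 in Vanillin, an increase of 8.65 (SE 0.06, adjusted p = 4.84e-12). Reg3b, a lectin secreted by the epithelium that binds bacteria, read 132, 134 and 139 in Mock and 32666, 33182 and 34065 in Vanillin, an increase of 7.79 (SE 0.05, adjusted p = 4.84e-12). For both genes the highest Mock array lay far below the lowest Vanillin array. Mmp10 (stromelysin 2), a matrix metalloproteinase, read 41.3, 39.6 and 41.6 in Mock and 11014, 9895 and 9647 in Vanillin and rose by 7.49. Mmp7 (matrilysin), a metalloproteinase of epithelial cells and a known Wnt target, read 24.2, 27 and 26.9 in Mock and 5975, 6145 and 6054 in Vanillin and rose by 7.18. Both were near the dim end of the scale in Mock, so these changes depend on the added 16. Retnlg, a resistin-like protein of neutrophils, rose by 6.79, Reg3g by 6.73, the pancreatic lipase-related gene Pnliprp1 by 6.62 and Acod1, the itaconate-forming enzyme of activated macrophages, by 6.17 (largest adjusted p of the 4 = 5.67e-10). The remaining 4 of the 12 were the cytokine genes Cxcl2, Ccl3, Ccl4 and Il1b.

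**Figure D2:**
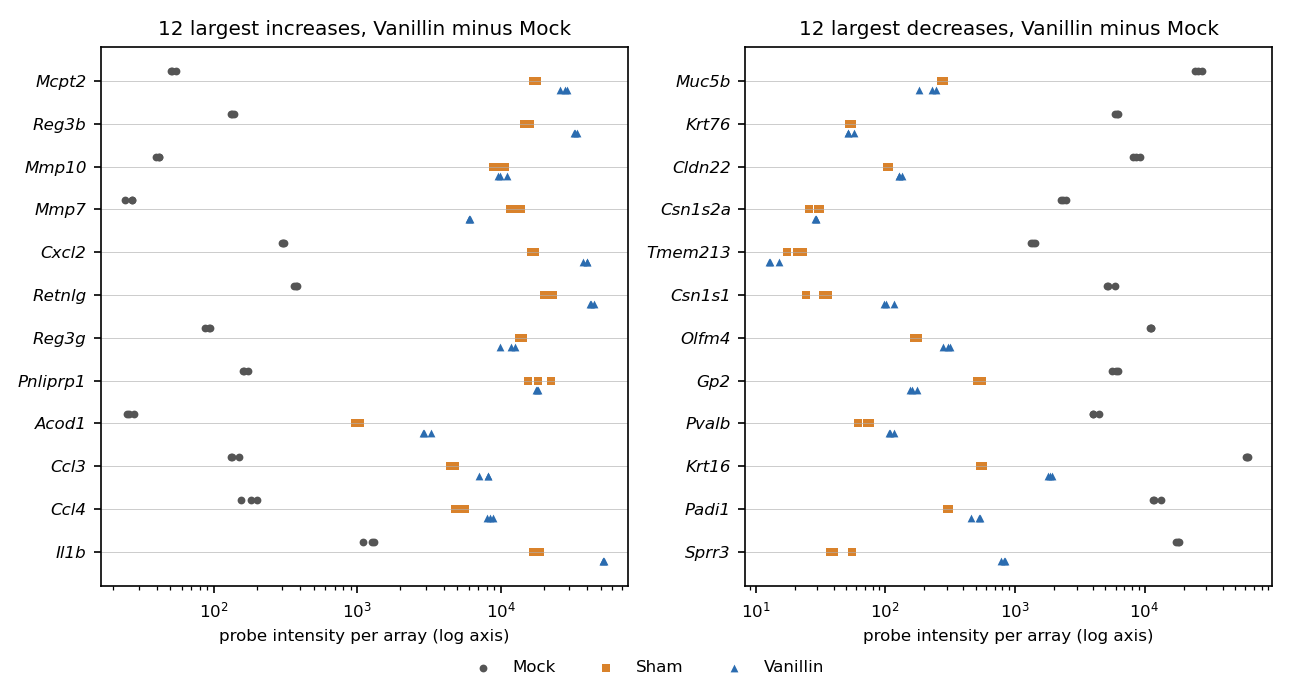
Probe intensity in each array, on a log axis, of the 12 genes with the largest called increase (left) and the 12 with the largest called decrease (right) in Vanillin minus Mock, with Sham shown beside them. In every gene drawn the Vanillin arrays (triangles) lie nearer to the Sham arrays (squares) than to the Mock arrays (circles) on the log axis.

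Most inflammatory cytokine and chemokine genes were still raised. Of 22 measured, 19 were called higher, 1 lower and 2 not called, with a median of 2.41. Il1b, the cytokine interleukin 1β, read 1102, 1307 and 1269 in Mock and 52407, 52047 and 51655 in Vanillin, an increase of 5.39 (SE 0.07, adjusted p = 1.47e-10). Cxcl2, a chemokine that attracts neutrophils, read 312, 306 and 299 in Mock and 37555, 39802 and 40217 in Vanillin, an increase of 6.93 (SE 0.05, adjusted p = 6.17e-12). In both genes all 3 Vanillin arrays were also above all 3 Sham arrays, by 1.53 and 1.20. The monocyte chemokine Ccl7 rose by 3.75, Ccl3 by 5.65, Ccl4 by 5.45 and Ptgs2, which encodes the inducible prostaglandin synthase COX-2, by 4.08. Il6, a cytokine that signals through STAT3, read 53.8, 62.6 and 64.1 in Mock and 716, 704 and 681 in Vanillin and rose by 3.24 (SE 0.06, adjusted p = 1.1e-09). Tnf, tumour necrosis factor, read 238, 223 and 230.3 in Mock and 399.8, 409.6 and 410.3 in Vanillin and rose by 0.78 (SE 0.04, adjusted p = 8.66e-07). The Mock and Vanillin arrays of neither gene overlapped. The only member called lower was Csf3 (fell by 0.48), while Il33 at -0.37 and Il17a at -0.09 were not called. Against Sham, the list had 9 called higher and 6 lower (median 0.05). Nos2, also on the list, was not analysed here.

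The promoters of 4 of these genes are printed because each carries letters of an NF-κB site. The motif searched was GGNNTTTCC, on both strands, in the RefSeq promoters (250 bases before to 50 after each gene's start, build GRCm38.p6). It was present in 1913 of 32851 promoters (5.82%). It was present in 6 of the 15 cytokine list members with a promoter in the table, namely Ccl20, Csf2, Cxcl1, Cxcl2, Cxcl3 and Il6. The 150 bases before each start are shown, plus strand, with matches in capitals; in Cxcl1 the match nearer the 5′ end is on the opposite strand. They lie at chr5:90891095-90891244 (Cxcl1), chr5:90903749-90903898 (Cxcl2), chr5:90785951-90786100 (Cxcl3) and chr5:30012964-30013113 (Il6).
Cxcl1: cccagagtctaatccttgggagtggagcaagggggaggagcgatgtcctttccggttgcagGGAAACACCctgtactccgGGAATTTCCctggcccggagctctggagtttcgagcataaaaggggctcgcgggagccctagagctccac
Cxcl2: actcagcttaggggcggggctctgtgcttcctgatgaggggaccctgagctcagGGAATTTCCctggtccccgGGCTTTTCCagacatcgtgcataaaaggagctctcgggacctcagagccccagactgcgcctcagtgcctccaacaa
Cxcl3: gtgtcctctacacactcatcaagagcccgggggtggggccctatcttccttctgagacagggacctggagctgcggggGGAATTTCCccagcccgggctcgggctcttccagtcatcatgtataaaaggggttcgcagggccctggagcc
Il6: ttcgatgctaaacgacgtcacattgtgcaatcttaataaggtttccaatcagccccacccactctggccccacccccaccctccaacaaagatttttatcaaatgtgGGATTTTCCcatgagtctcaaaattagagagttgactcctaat
Counted from the first base of the match to the gene's start, the matches begin 89 and 70 bases upstream in Cxcl1, 96 and 77 in Cxcl2, 72 in Cxcl3 and 43 in Il6. Cxcl1 read 229, 207 and 215 in Mock and 5496, 6044 and 6731 in Vanillin and rose by 4.71 (SE 0.09, adjusted p = 1.1e-09), and Cxcl3, named for its promoter, read 628, 599 and 668 in Mock and 7974, 7879.7 and 9155 in Vanillin and rose by 3.69 (SE 0.08, adjusted p = 2.73e-09). A match is a description of the letters and says nothing about binding.

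Markers of immune cells were counted next. Of 19 neutrophil markers, 14 were called higher, 3 lower and 2 not called (median 2.57), and against Sham 16 were called higher and 0 lower. Trem1, an activating receptor of myeloid cells, read 94.3, 74.1 and 78.2 in Mock and 3381, 3855 and 3558 in Vanillin and rose by 5.20 (SE 0.08, adjusted p = 4.03e-10). Clec4d, a C-type lectin receptor, read 222, 225 and 243 in Mock and 7416, 7561 and 8433 in Vanillin and rose by 4.99, and the neutrophil collagenase Mmp8 rose by 4.84. Vanillin arrays were above Sham arrays in all 3, by 1.55, 1.17 and 0.60. The 3 members called lower were Il1r2 (-0.30), S100a8 (-1.20, from a dim probe) and Ltf (-2.06), the last of which also marks glands. The summed intensity of the neutrophil list was 80432 to 85918 in Mock and 155990.0 to 162885 in Vanillin, of which Ltf alone made 41218 ± 1359.6 (SD, n = 3) in Mock.

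Of 13 mast cell and eosinophil markers, 9 were called higher, 1 lower and 3 not called (median 1.76). Hdc, the enzyme that makes histamine, read 143, 165 and 163 in Mock and 3533, 3427 and 3349.7 in Vanillin and rose by 4.32 (SE 0.06, adjusted p = 1.79e-10), the tryptase Tpsab1 rose by 3.81 and the IgE receptor chain Fcer1a by 3.05. For these 3 and for Mcpt2, the Vanillin arrays were the highest of the series. The eosinophil genes Epx (0.20), Prg2 (0.29) and Ccr3 (0.02) were not called, and Gata2 was called lower (-0.26, with another probe not called at 0.02). The summed intensity of the list was 10632 to 11046 in Mock, 45404 to 48536 in Sham and 74581 to 76453 in Vanillin. Mcpt1 was not analysed here.

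Of 19 macrophage and monocyte markers, 14 were called higher, 4 lower and 1 not called (median 0.97). Spp1 (osteopontin), a secreted matrix protein of activated macrophages, read 914, 1005 and 924 in Mock and 8675, 8353 and 8213 in Vanillin and rose by 3.13 (SE 0.06, adjusted p = 9.42e-10). Cd14, the co-receptor for bacterial lipopolysaccharide, rose by 2.62, the complement gene C1qc by 1.10 and the receptor gene Trem2 by 1.07. The 4 called lower were Cd163 (-0.52), Arg1 (-0.67), Mertk (-0.68) and Gpnmb (-1.10). Of 16 B and plasma cell markers, 11 were called higher, 2 lower and 3 not called (median 0.78). Jchain, which links antibody units into the secreted form, read 3863, 4018 and 4499 in Mock and 24608, 24822 and 26725 in Vanillin and rose by 2.62 (SE 0.07, adjusted p = 5.56e-09), and the plasma cell gene Mzb1 rose by 2.57; both were below Sham, by 0.54 and 0.83. Of 18 T and NK cell markers 7 were called higher and 1 lower (median 0.15; 2 and 0 past the minimum change). Among them the killer-cell protease genes Gzmb (3.37) and Gzma (2.27) rose most, whereas Cd3e, part of the T cell receptor complex, rose by 0.64.

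Some genes of epithelial defence and of matrix breakdown were far above Mock. Of 16 antimicrobial and regenerating protein genes, 10 were called higher, 2 lower and 4 not called (median 0.60). Pla2g2a, a secreted phospholipase that kills Gram-positive bacteria, read 1827, 1835 and 1719.6 in Mock and 65509, 65509 and 64389.7 in Vanillin and rose by 5.17, which may understate the change since the Vanillin and Sham arrays were at the end of the scale. Lcn2, which withholds iron from bacteria, read 3516, 3567 and 3610.4 in Mock and 11879.7, 11979 and 11949.9 in Vanillin and rose by 1.74 (SE 0.06, adjusted p = 2.41e-08). Reg3g read 92.4, 86.6 and 94.2 in Mock and 9843, 11895 and 12546 in Vanillin against 13774, 13495 and 14273 in Sham. Reg2 (-0.46) and Wfdc2 (-0.49) were called lower. Of 16 metalloproteinase and inhibitor genes, 10 were called higher, 1 lower and 5 not called (median 0.92, or 1.64 without the dimmest 30% of probes). Mmp13, a collagenase, read 603, 614 and 629 in Mock and 12261, 12739 and 12513 in Vanillin and rose by 4.31 (SE 0.04, adjusted p = 3e-11). Timp2, an inhibitor of metalloproteinases, was the only one called lower, at 279, 298 and 285 in Mock, 602, 528 and 536 in Sham, and 148, 122 and 121 in Vanillin, below both other groups.

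Wnt/β-catenin targets remained above the untreated colon. Of 24 measured, 20 were called higher, 1 lower and 3 not called (median 1.19). Sp5, a transcription factor that responds directly to Wnt, read 55, 66.5 and 58.2 in Mock and 2888, 2735 and 2649 in Vanillin, an increase of 5.19 (SE 0.07, adjusted p = 9.85e-11). Wif1, a secreted Wnt inhibitor, read 919, 966 and 906 in Mock and 28603, 29676 and 29447 in Vanillin, an increase of 4.95 (SE 0.06, adjusted p = 5.8e-11). Neither gene had overlapping groups. The feedback inhibitors Nkd1 and Axin2 rose by 3.28 and 1.79, and Lgr5, the stem cell receptor for R-spondins, by 2.12. Axin2 read 905, 879.9 and 909 in Mock and 3224, 3188 and 3047 in Vanillin, and Lgr5 939.6, 952 and 916 in Mock and 4329, 4097 and 3930.3 in Vanillin, with all Vanillin arrays above all Mock arrays. The 1 member called lower was Plau (-0.47). Against Sham, 16 of the 24 were called lower and 2 higher (median -0.48; 15 and 3 with centred arrays): Sp5 by 0.77, Nkd1 by 0.68, Axin2 by 0.50 and Lgr5 by 0.78 lower. Another Nkd1 probe changed less, by 2.01 against Mock and -0.18 against Sham. Wif1 at -0.15 was not called against Sham. Notum and Myc were not analysed here.

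The Sp5 promoter is printed because it holds a TCF/LEF match in the Wnt target with the second largest increase, after Mmp7. The letters searched were CTTTGAT, on both strands. They were present in 1225 of 32851 promoters (3.73%) and in 3 of the 16 Wnt list members with a promoter (Mmp7, Sp5 and Tnfrsf19). The 150 bases before the Sp5 start (plus strand, chr2:70474773-70474922, GRCm38.p6, RefSeq) have the match in capitals, 104 bases upstream.
Sp5: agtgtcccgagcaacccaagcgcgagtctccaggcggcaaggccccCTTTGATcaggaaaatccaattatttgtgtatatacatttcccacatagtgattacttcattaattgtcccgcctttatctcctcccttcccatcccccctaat
No statement about binding follows from the match.

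Cell cycle genes were raised to a smaller extent. Of 29 measured, 25 were called higher, 0 lower and 4 not called, or 16 and 0 past the minimum change (median 0.81). Ccna2, cyclin A2, read 2301, 2276 and 2229 in Mock and 6241, 6488 and 6299 in Vanillin and rose by 1.48 (SE 0.04, adjusted p = 1.25e-08). Top2a, the topoisomerase of replicating cells, read 1771, 1677 and 1679.8 in Mock and 4269.8, 4482 and 4444 in Vanillin and rose by 1.36 (SE 0.05, adjusted p = 3.04e-08), and the mitotic kinases Bub1 and Aurka rose by 1.24 and 1.14. Vanillin arrays of these 4 genes lay between those of Mock and Sham without overlap. Mki67, the proliferation marker Ki-67, was not called on its brightest probe (2913, 2978 and 2812 in Mock and 3116, 3182 and 2839 in Vanillin, change 0.07) but was on its other probe (0.94). Birc5 (survivin) also had probes in conflict, at 0.98 on the brightest and -1.05 on another. Against Sham, 24 of 29 were called lower and 0 higher (median -0.49), or 21 and 1 with centred arrays.

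**Figure D3:**
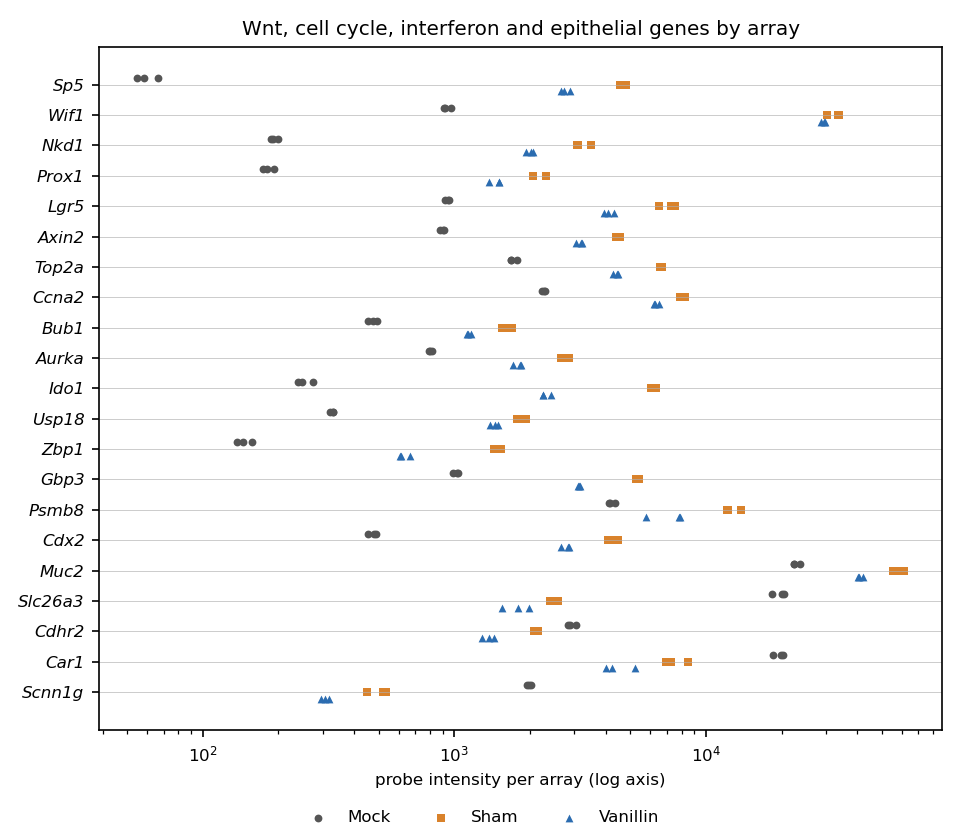
Probe intensity in each array, on a log axis, of Wnt targets, cell cycle, interferon-stimulated and epithelial genes. For Sp5 down to Muc2 the Vanillin arrays (triangles) lie between Mock (circles) and Sham (squares), or near Sham in Wif1. For Slc26a3 down to Scnn1g they lie below both.

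Interferon-stimulated genes showed the same order of groups. Of 25, 20 were called higher, 1 lower and 4 not called, or 12 and 1 past the minimum change (median 0.83), and against Sham 21 were called lower and 1 higher (median -0.57). Ido1, which degrades tryptophan, read 274, 248 and 239 in Mock, 6310.2, 6103 and 6061 in Sham, and 2256, 2431 and 2258 in Vanillin, an increase of 3.11 over Mock (SE 0.06, adjusted p = 1.1e-09). Zbp1, a sensor of Z-form nucleic acid, read 136, 156 and 144 in Mock, 1452, 1536 and 1441 in Sham, and 668, 615 and 609.8 in Vanillin, an increase of 2.0016 (SE 0.06, adjusted p = 1.85e-08). The groups did not overlap in either gene. Usp18, which removes ISG15 from proteins, rose by 2.08 and the guanylate-binding gene Gbp3 by 1.60. Mx1 was the one called lower (-1.39). The 3 measured MHC class II genes were called higher, Cd74 by 0.93, H2-Aa by 0.73 and Ciita by 0.19, the last not called without Mock replicate 2 or 3 or Vanillin replicate 2 (adjusted p = 0.0525 to 0.072); 1 of the 3 was called past the minimum change.

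Gene lists for the 3 pathways of the series title had median changes between -0.13 and 0.41. These are transcript levels, and the activity of the pathways was not measured here. Of 12 genes of the 20S core, the barrel that degrades proteins, 9 were called higher, 1 lower and 2 not called, or 0 and 0 past the minimum change (median 0.24, range -0.23 to 0.37). Psma2 read 37426, 39521 and 39104 in Mock and 52849, 48893 and 47879 in Vanillin and rose by 0.37 (SE 0.06, adjusted p = 0.00086), and Psma1 rose by 0.30. Psmb7 was the core gene called lower (-0.23). Of 21 genes of the 19S cap, which admits tagged proteins, 5 were called higher, 3 lower and 13 not called, or 0 and 0 past the minimum change (median 0.08), both shares at or below the background; 8 were called higher with array weights. Psmd14, the deubiquitinase of the cap, read 22338, 21961 and 21836 in Mock and 29097, 31306 and 30807 in Vanillin and rose by 0.46 (SE 0.06, adjusted p = 0.000112), and Psmd10 rose by 0.49, while Psmc5 fell by 0.33. Of 10 immunoproteasome and peptide loading genes, 5 were called higher, 2 lower and 3 not called, or 0 and 0 past the minimum change (median 0.22). Psmb8 read 4141, 4103 and 4362 in Mock and 7817, 5786 and 7863 in Vanillin, with Vanillin above Mock in every array, and rose by 0.75 (SE 0.12, adjusted p = 0.000546). Psmb9 rose by 0.73, whereas the activator subunits Psme3 (-0.52) and Psme2 (-0.68) were called lower. Against Sham 8 of these 10 genes were called lower (6 with centred arrays), Psmb8 by 0.84.

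Of 18 NF-κB subunit and feedback genes, 9 were called higher, 2 lower and 7 not called, or 3 and 0 past the minimum change (median 0.19). The raised ones included feedback genes. Bcl3, an IκB-like nuclear protein, read 2841, 3083 and 2855 in Mock and 6661, 6626 and 6762 in Vanillin and rose by 1.19 (SE 0.05, adjusted p = 2.04e-07). Nfkbie, an inhibitor of NF-κB, rose by 1.16, Tnfaip3 (A20), which ends NF-κB signalling, by 1.07, and the subunit gene Rel by 0.77. The subunit gene Rela (0.07) and Nfkbia (0.03), which encodes IκBα, were not called. Nfkb1, the p105/p50 subunit gene, read 6389, 6195 and 6103 in Mock, 760.3, 723 and 724 in Sham, and 4787, 4811 and 4477 in Vanillin, 0.41 lower than in Mock (SE 0.05, adjusted p = 0.000123). Its order of groups, lowest in Sham and highest in Mock, was that of the skin markers given above, and the part of those tissues in it was not tested. Of 23 MAP kinase cascade genes, 3 were called higher, 9 lower and 11 not called, or 0 and 2 past the minimum change (median -0.13). Mapk12 (p38γ), a kinase abundant in skeletal muscle, read 1021, 1015 and 1013 in Mock and 416, 407 and 367 in Vanillin and fell by 1.33 (SE 0.05, adjusted p = 1.1e-07). Map2k6, which activates p38 kinases, fell by 1.15 and Mapk14 (p38α) by 0.21, while Braf rose by 0.56. Of 21 early genes that respond to MAPK, 13 were called higher, 4 lower and 4 not called, or 5 and 0 past the minimum change (median 0.41). Phlda1 read 6059, 5712 and 5888 in Mock and 25359, 28741 and 32119 in Vanillin and rose by 2.28 (SE 0.08, adjusted p = 4.24e-08), the transcription factor Etv5 by 2.02, and the phosphatases Dusp4 and Dusp6, which switch MAPK off, by 1.49 and 0.81. Fos was called higher by 0.15 (adjusted p = 0.0386), a call lost with the replicate block (adjusted p = 0.0673) and without any 1 array other than Vanillin replicate 1 (0.0632 to 0.131).

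**Figure D4:**
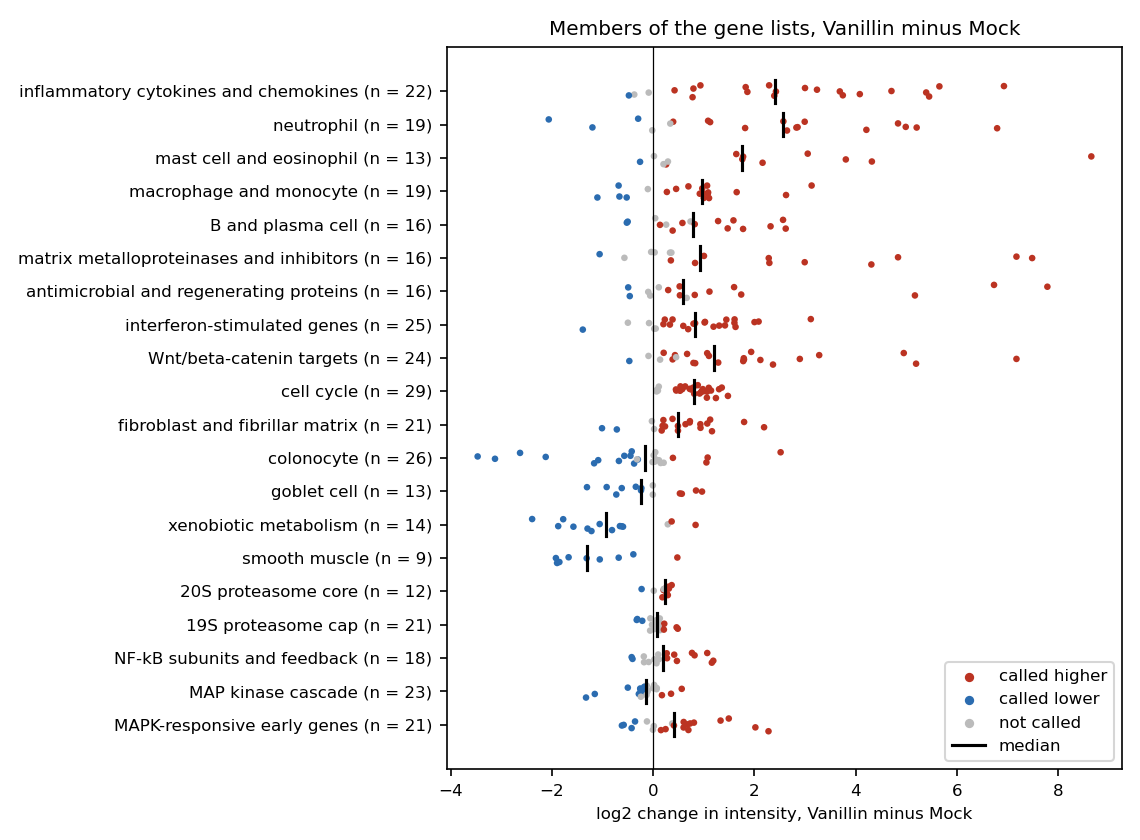
Log2 change in Vanillin minus Mock of every measured member of 20 lists, 1 point per gene, with black bars for the list medians. Cytokine, neutrophil and mast cell members spread to the right, smooth muscle and xenobiotic metabolism members to the left, and proteasome core and cap members lie close to 0.

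Some transport genes of the mature colonocyte were far below Mock, whereas the list as a whole was mixed. Of 26 colonocyte genes, 4 were called higher, 12 lower and 10 not called, or 3 and 6 past the minimum change (median -0.16, moving to -0.0011 without the dimmest 30% of probes and to -0.03 without Mock replicate 1), and against Sham 16 were called lower and 0 higher (11 lower with centred arrays). Slc26a3, the chloride/bicarbonate exchanger of the surface epithelium, read 20521, 18318 and 20096 in Mock, 2402, 2573 and 2459.6 in Sham, and 1541, 1789 and 1976 in Vanillin and was 3.47 below Mock (SE 0.09, adjusted p = 6.37e-09). Scnn1g, a subunit of the epithelial sodium channel, read 2013, 1973 and 1939 in Mock, 536, 451 and 521 in Sham, and 295, 306 and 316 in Vanillin and was 2.63 below Mock (SE 0.07, adjusted p = 6.18e-09). Car1, carbonic anhydrase 1, read 19902, 18452 and 20264 in Mock, 6941, 7284 and 8473 in Sham, and 4018, 4247 and 5237 in Vanillin and was 2.12 below Mock (SE 0.11, adjusted p = 4.44e-07). In these 3 genes the Vanillin arrays were the lowest of the series and did not overlap the other groups. Another, dim Car1 probe was not called (-0.27). Cdhr2, a cadherin of the brush border, fell by 1.09, while the water channel gene Aqp8 fell by 0.30. Cdx2, the transcription factor of intestinal identity, moved the other way, at 487, 453 and 478 in Mock and 2663, 2825 and 2862 in Vanillin, an increase of 2.52 (SE 0.05, adjusted p = 2.29e-09), and the Sham arrays were higher still, by 0.61.

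Of 13 goblet cell genes, 4 were called higher, 7 lower and 2 not called, or 2 and 2 past the minimum change (median -0.23). Muc2, the gel-forming mucin of the colon, read 22389, 23655 and 22389 in Mock and 40348, 41999 and 40692 in Vanillin and rose by 0.85 (SE 0.05, adjusted p = 1.53e-06). Spink4, a small secreted protease inhibitor of goblet cells, rose by 0.97, with Vanillin and Sham arrays at the end of the scale. Zg16, a lectin of the mucus layer, read 50395, 49642 and 49027 in Mock and 31393, 32715 and 32850.1 in Vanillin and fell by 0.62 (SE 0.04, adjusted p = 2.92e-06), and Spdef, the transcription factor of goblet cell maturation, fell by 1.31. Mucus genes therefore moved in both directions, with no overlap of Mock and Vanillin arrays in these 4. Of 16 enteroendocrine and tuft cell genes, 6 were called higher, 5 lower and 5 not called, or 2 and 1 past the minimum change (median 0.08). Tph1, which starts serotonin synthesis, rose by 0.80 and the leukotriene enzyme Alox5 by 0.79, while the hormone gene Gcg fell by 0.90 and the granule gene Chga by 0.66.

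Genes of xenobiotic metabolism were lower than in the untreated colon. Of 14, 2 were called higher, 11 lower and 1 not called, or 0 and 7 past the minimum change (median -0.93). Abcb1a, the drug efflux pump P-glycoprotein, read 2363, 2219 and 2342 in Mock and 426, 405 and 452 in Vanillin and fell by 2.39 (SE 0.06, adjusted p = 5.4e-09). Sult1a1, a phenol sulfotransferase, read 18384, 19925 and 18539 in Mock and 5199, 5339 and 4918 in Vanillin and fell by 1.88 (SE 0.06, adjusted p = 1.4e-08). Aldh1a1, which oxidises aldehydes to acids, fell by 1.78 and Gsta4, a glutathione transferase, by 1.22. The Mock and Vanillin arrays of the 4 genes did not overlap, and the members called higher were Ces1g (0.84) and Gstp1 (0.37). Of 11 Nrf2 targets, genes of the antioxidant response, 4 were called higher, 3 lower and 4 not called (median -0.10). Gsr rose by 1.19, the cystine transporter Slc7a11 by 1.09 and Txnrd1 by 1.04, while Osgin1 fell by 0.76.

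Of 12 fatty acid oxidation and ketogenesis genes, 1 was called higher, 9 lower and 2 not called, or 0 and 1 past the minimum change (median -0.31). Ppara, a nuclear receptor that drives these genes, fell by 1.15 (another probe, at -0.51, was not called) and the thiolase gene Acaa2 by 0.73, and Acadl was the one called higher (0.30). Of 16 glycolysis and hypoxia genes, 2 were called higher, 11 lower and 3 not called, or 0 and 2 past the minimum change (median -0.28), with the mitophagy gene Bnip3 at -1.59 and the glucose transporter Slc2a1 at -0.78. Oxidative phosphorylation genes had 1 called higher, 5 lower and 15 not called of 21 (median -0.04; 0 and 0 past the minimum change). Of the 7 ribosomal protein genes measured, 5 were not called, Rpl5 rose by 0.36 (not called without Mock replicate 2, adjusted p = 0.0557, or replicate 3, adjusted p = 0.0504) and Rpl27 fell by 0.24, and neither was called past the minimum change.

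The stroma was split between matrix and muscle. Of 21 fibroblast and fibrillar matrix genes, 17 were called higher, 2 lower and 2 not called, or 7 and 1 past the minimum change (median 0.49). Grem1, an antagonist of bone morphogenetic proteins made by stromal cells, read 1620.4, 1633 and 1631 in Mock and 7301, 7713 and 7464 in Vanillin and rose by 2.19 (SE 0.05, adjusted p = 2e-09), the matrix protein Tnc rose by 1.16 and the collagen gene Col3a1 by 1.13. Col1a1 (-0.72, on a dim probe) and Fap (-1.01) were called lower. Of 9 smooth muscle genes, 1 was called higher, 8 lower and 0 not called (median -1.31). Des, the intermediate filament desmin, read 11443, 11196 and 10951 in Mock, 1829, 1866 and 1776 in Sham, and 3262, 3099.8 and 2914 in Vanillin and fell by 1.85 against Mock (SE 0.05, adjusted p = 1.21e-08). Smtn fell by 1.90, Tagln by 1.67 and Cnn1 by 1.92, all with separate Mock and Vanillin arrays, and Actn1 was called higher (0.48). The summed smooth muscle intensity was 115578 to 118799 in Mock, 61065 to 63420.0 in Sham and 68138 to 73781 in Vanillin. Desmin is also made by skeletal muscle, whose markers fell too, and the part of that tissue in the fall of Des was not tested. Of 10 enteric neuron and glia genes, 1 was called higher, 6 lower and 3 not called, or 0 and 2 past the minimum change (median -0.32), with the neuronal filament Prph at -1.33 and the glial gene S100b at -1.17. Of 14 endothelial genes, 5 were called higher, 3 lower and 6 not called, or 1 and 1 past the minimum change (median 0.05), and Flt1, a receptor for vascular endothelial growth factor, fell by 0.90.

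The 12 largest decreases from untreated colon included genes known from mucous and oral-type epithelium, milk and muscle. Muc5b, a gel-forming mucin of airways and glands, read 25858, 24390.4 and 27952 in Mock and 182, 246 and 228 in Vanillin and fell by 6.80 (SE 0.10, adjusted p = 2.18e-10). Krt76, a keratin of oral epithelium, read 5943, 6222 and 6171 in Mock and 57.4, 51.7 and 51.6 in Vanillin and fell by 6.46 (SE 0.05, adjusted p = 8.7e-12). Olfm4, a secreted glycoprotein of the gut epithelium, read 11220.1, 10988 and 11273 in Mock and 319, 280.4 and 305 in Vanillin and fell by 5.14 (SE 0.06, adjusted p = 4.12e-11). In all 3 the lowest Mock array was far above the highest Vanillin array. Another Muc5b probe fell by 8.90. The milk casein genes Csn1s2a and Csn1s1 fell by 5.72 and 5.49, the tight junction gene Cldn22 by 5.89 and Tmem213 by 5.56. Gp2, a glycoprotein that binds bacterial fimbriae on M cells, fell by 5.06 and Pvalb, a calcium-binding protein of fast muscle, by 5.04. The stress keratin Krt16, the citrullinating enzyme Padi1 and the cornified envelope gene Sprr3 fell by 5.04, 4.56 and 4.44.

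Most markers of squamous epithelium, hair follicle, fat and skeletal muscle were called lower than in Mock. Of 29 squamous genes, 1 was called higher, 20 lower and 8 not called (median -0.77). Krt4, a keratin of moist, non-cornified lining, read 35421, 37281 and 37281 in Mock and 2835, 2496 and 2495 in Vanillin and fell by 3.81 (SE 0.07, adjusted p = 5.67e-10), and Krt13 read 63146, 65507 and 65320.1 in Mock and 6293, 6483 and 6351 in Vanillin and fell by 3.34 (SE 0.04, adjusted p = 1.33e-10). Lor and Krt10, cornified-layer genes that were not called, were at or near the end of the scale in Mock and Vanillin, so a change in them may be understated. Hrnr, hornerin of the epidermis, read 20052, 20778 and 19297 in Mock and 28521, 26464 and 26901 in Vanillin and rose by 0.45 (SE 0.06, adjusted p = 0.000278). Of 21 hair follicle genes, 0 were called higher, 17 lower and 4 not called (median -0.90), with Krt27 at -0.92 and Padi3 at -1.61. Of 15 fat cell genes, 0 were called higher, 10 lower and 5 not called, or 0 and 5 past the minimum change (median -0.39), with leptin (Lep) at -1.03 and Pck1 at -0.98. All 13 skeletal muscle genes were called lower (median -1.76), Ckm by 2.39 and Atp2a1 by 3.44. Of 10 mammary gland genes, 1 was called higher, 7 lower and 2 not called (median -1.37, or -2.18 without the dimmest 30% of probes), the progesterone receptor Pgr among them at -3.37. Of 14 sebaceous gland genes, 3 were called higher, 4 lower and 7 not called, or 0 and 2 past the minimum change (median 0.01). Of 10 mesothelium genes, 2 were called higher, 5 lower and 3 not called, or 2 and 1 past the minimum change (median -0.19, or -0.31 without those probes), with mesothelin (Msln), which tumours can also express, at 57.3, 65.3 and 52.3 in Mock and 1231, 1222 and 1174 in Vanillin, an increase of 4.05. Of 9 pancreatic acinar genes, 2 were called higher, 3 lower and 4 not called, and of 3 erythroid genes, 1 was called higher, 2 lower and 0 not called, or 0 and 1 past the minimum change. With array weights 5 pancreatic acinar genes were lower, and without Mock replicate 2 or 3 or Vanillin replicate 2 or 3 1 erythroid gene was.

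Some genes stood at the level of AOM/DSS without vanillin. They were defined as those called against Mock whose 95% confidence interval of Vanillin minus Sham lay within -0.5 to 0.5, so that closeness to Sham was a condition for being chosen and is not a result. Among the 12 with the largest increase, Mmp10 read 9962, 8825 and 10753 in Sham and 11014, 9895 and 9647 in Vanillin (interval -0.13 to 0.23) and Pnliprp1 18095, 15452 and 22302 in Sham and 18187, 17647 and 17825 in Vanillin (interval -0.30 to 0.22). The others were Tnfrsf11b (osteoprotegerin, a decoy receptor), 3.70 above Mock, the tripartite motif genes Trim10 and Trim15, 4.12 and 3.58 above it, and the secreted chemotaxin Lect2, 3.48 above it. Il6, Cxcl1, Mmp13, Wif1 and Reg3g were also among the 12. Pla2g2a met the condition too, but its Sham and Vanillin arrays were at the end of the scale, so its 2 levels could not be compared. Tnfrsf11b read 1230.4, 1211 and 1269 in Mock and 17051, 16378 and 15452 in Vanillin, without overlap. Among the 12 with the largest decrease, Has2, which makes hyaluronan, read 2271, 2396 and 2248 in Mock, 248, 259 and 224 in Sham, and 238, 226 and 218 in Vanillin and was 3.25 below Mock (SE 0.06, adjusted p = 1.1e-09). Il17b, a cytokine of the interleukin 17 family, read 3220.4, 3425 and 3439.8 in Mock, 409, 411 and 392 in Sham, and 503, 480.2 and 461 in Vanillin and was 2.76 below Mock (SE 0.05, adjusted p = 9.63e-10). The muscle genes Actn3 and Pln fell by 4.27 and 3.14, the casein Csn2 by 3.61, the serpin Serpinb11 by 2.97, Pcp4 by 2.67 and the protocadherin Pcdh17 by 2.58, and Krt76, Cldn22, Csn1s2a and Tmem213 were also in this group. Actn3 was the 1 skeletal muscle marker called below Sham (-0.35), while 11 of 13 were called above it.

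**Figure D5:**
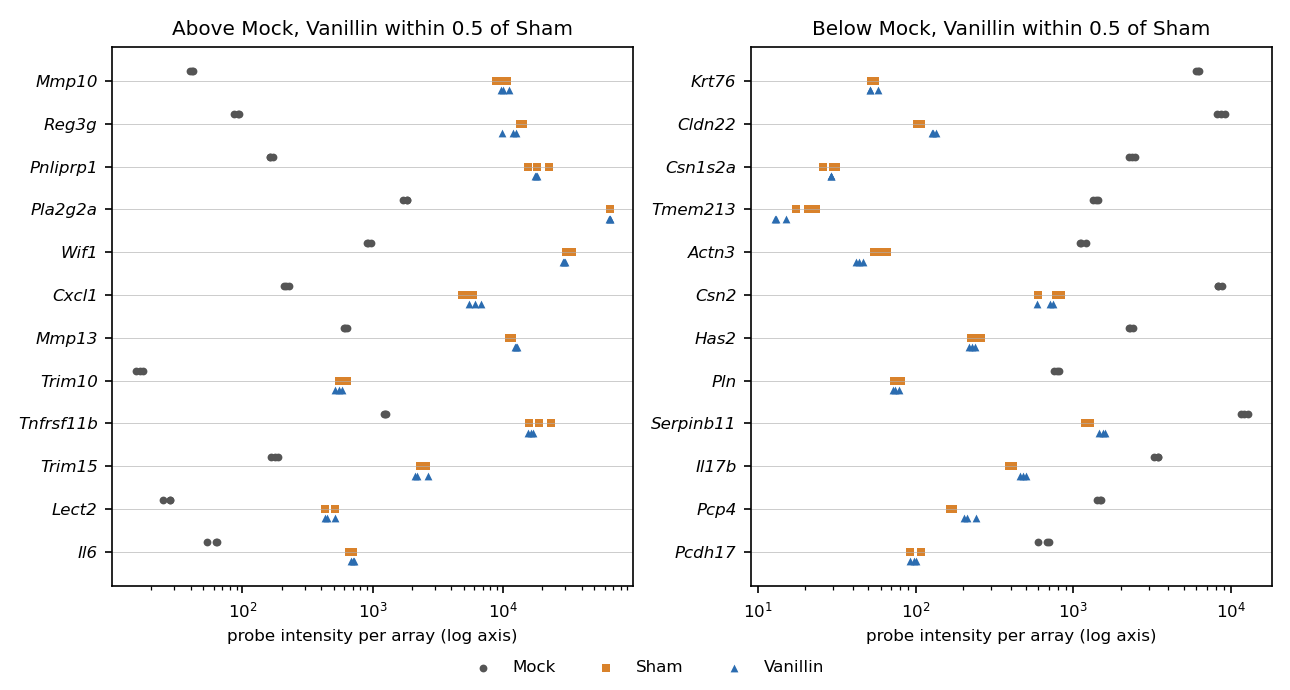
Probe intensity in each array, on a log axis, of 12 genes above Mock (left) and 12 below Mock (right) chosen because Vanillin lay within 0.5 of Sham on the log2 scale. Vanillin (triangles) and Sham (squares) arrays share a level that Mock arrays (circles) do not reach; Pla2g2a lies at the end of the scale.

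Other genes lay farther from Mock than Sham did, or on the opposite side of Mock from Sham. These were chosen as called in the same direction against both groups, and the choice again used the values it would show. The 12 with the largest increase over Sham were mostly genes of skin, such as Hrnr, the filaggrin-like Flg2 and the epidermal keratins Krt2 and Krt77. Their rise over Mock was small, at 0.16 in Krt77, 0.34 in Flg2 and 0.70 in Krt2, and the part of skin in them was not tested. Calm5, Lce6a and Klk5, also of the epidermis, were 0.59, 0.23 and 0.22 above Mock, and the defensin gene Defb6, Orm1, Aadac and Serpina3b 0.30, 0.22, 0.31 and 0.26. Of these, 4 lost the call when an array was left out: Krt77 without Mock replicate 1 or 3 or Vanillin replicate 1 or 2 (adjusted p = 0.053 to 0.0809), Lce6a without any of these or Mock replicate 2 (0.0702 to 0.0998), Klk5 without Mock replicate 3 (0.0633), and Serpina3b without that array or Vanillin replicate 1 or 2 (0.0543 to 0.068). Serpinb6d, a serpin, differed more, at 357, 325 and 343 in Mock, 46, 46 and 48.8 in Sham, and 1088, 1179.7 and 1142 in Vanillin, 1.69 above Mock (SE 0.05, adjusted p = 2.16e-08).

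Among the 12 with the largest decrease from Sham, several encode enzymes. Hao2, a peroxisomal hydroxy acid oxidase, read 18134, 18950.4 and 18569.8 in Mock, 11190.3, 11126 and 10966 in Sham, and 3962, 4007 and 3779 in Vanillin and was 2.24 below Mock (SE 0.04, adjusted p = 1.31e-09). Mpst, which makes hydrogen sulfide from 3-mercaptopyruvate, read 2987, 3134 and 2982 in Mock, 3177, 3172 and 2929 in Sham, and 1268, 1214 and 1073 in Vanillin and was 1.35 below Mock (SE 0.07, adjusted p = 4.36e-07). The Vanillin arrays of both were the lowest of the series, and Sham overlapped Mock in Mpst but not in Hao2. Gp2 read 536, 509 and 554 in Sham and 155, 159.6 and 175 in Vanillin. The calcium-binding S100g was 0.78 below Mock, Upb1 0.93, Pigt, of glycolipid anchor transfer, 0.63, Apob 0.37, Upk3b 0.36, Adgrg7 0.25 and Rab5c 0.19. The ranking was by the fall from Sham, so a gene close to Mock may have Sham above Mock and farther from it. S100g was not called without Mock replicate 2 or 3 or Vanillin replicate 2 or 3 (adjusted p = 0.0728 to 0.0821), nor Apob without Mock replicate 2 (0.0524) or Vanillin replicate 3 (0.0578). Ifit3b, an interferon-induced gene, had 2 Vanillin arrays near 0 and 1 at 367, against 435, 415 and 445 in Mock. Its fall of 3.25 (adjusted p = 0.0266) therefore rests on 2 arrays, and was not called without Vanillin replicate 1 (adjusted p = 0.0841) or replicate 2 (adjusted p = 0.0904), without any 1 Mock array (0.0561 to 0.0633) or in a fit of the 6 arrays alone (0.0632).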

How the data were processed

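Colon RNA was read on 26423 probes per array. The values are intensities deposited by the authors as 1 table; limma is listed in the submitters' processing notes without role or version, and the scanner, background correction and normalization were not given in the sources used here. Array quartiles differed by at most 0.0128 on the log2 scale, medians lay at 319.6 to 320.1 and every array had 60 probes above 60000. The arrays thus share nearly the same distribution, and a value is relative to the other probes of its array. The 3 to 14 negative intensities per array were set to 0 and log2(intensity + 16) was taken. All 9 arrays were fitted by group with limma 3.58.1 (R 4.3.3), eBayes without trend, on 6 residual degrees of freedom, with Benjamini-Hochberg adjustment over all probes; the script was tested on simulated data. Tables and figures used Python 3.11.15 and matplotlib 3.10.9. The deposited platform annotation gave 1 symbol to 20377 probes and none to 6046; 2126 symbols were updated through RefSeq synonyms. Of several probes of a gene, the brightest stands for it.

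Named genes are the 12 largest changes in each direction without overlap of arrays, and the 12 kept at the Sham level. They also include the 12 with the largest change from Sham in each direction, among genes called in the same direction against Mock and Sham. Up to 4 members with the smallest p of each list and a set list were added. Others were chosen after their values were seen. The comparison, gene lists and rules were chosen with earlier results of these data known. The alternatives were another pseudocount, leaving out dim probes, fitting 6 arrays, array weights, a variance trend, centred arrays, a replicate block, a minimum change, the mean of a gene's probes and leaving out each array. Same-numbered Mock and Vanillin arrays deviated apart (correlations -0.288, -0.103 and -0.151). These values show no pairing by number but cannot exclude one.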

Additional observations from a re-analysis of the deposited data

How the results depend on the processing

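The counts of probes called in Vanillin minus Mock were compared under every alternative except the mean of a gene's probes, which has no probe counts. They stayed within 1.5 times the reported ones except under a minimum change of log2(1.5), which left 1226 probes higher and 1491 lower. That minimum ended every call in the 20S core, 19S cap, immunoproteasome, oxidative phosphorylation and ribosomal protein lists. With a replicate block, 6297 probes were higher and 6724 lower. Leaving out each array in turn gave 5613 to 6428 probes higher and 6032 to 7220 lower. Of 237 called genes examined one by one, 170 kept call and direction in every alternative, 67 lost the call in some, mostly under the minimum change, and 0 reversed. Many of them had been chosen for a large change or a small p, so these counts do not stand for all called genes. In 26 of 40 gene lists the median moved by more than the spread between arrays in some alternative. Same-numbered Sham and Vanillin arrays deviated together (correlations 0.126 to 0.201); with the block, Vanillin minus Sham had 3018 named genes higher and 6030 lower, and 8819 of 9315 calls remained. Probes near the dim end and the end of the scale limit the size of a change. 3 arrays per group limit the precision.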

Other observations

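The genes here were chosen after their values were seen, and no test beyond the fit over all probes is given for them. Uchl5, a deubiquitinase that binds the proteasome cap, read 208, 207 and 219.6 in Mock, 234, 243 and 252 in Sham, and 1911, 1687 and 1811 in Vanillin. Vanillin was 2.9965 above Mock (SE 0.06, adjusted p = 1.1e-09) and 2.81 above Sham, while Mock and Sham lay close together. G0s2, an inhibitor of the fat-breaking lipase ATGL, had the same pattern, at 3329, 3372 and 2852 in Mock, 3329, 2993 and 3144 in Sham, and 19014, 19769 and 19607 in Vanillin, 2.61 above Mock (SE 0.07, adjusted p = 9.74e-09). These 2 genes stood apart in the Vanillin arrays alone, and each was read from a single probe.

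Some single genes were far above Mock. Clec7a (dectin-1), which binds fungal glucan, was 3.79 above Mock, the urokinase receptor Plaur 3.57, the chemokine receptor Ccr1 3.12, the cytokine feedback gene Socs3 2.63, P-selectin (Selp) 2.73 and the B cell chemokine Cxcl13 2.55. Evx1, a homeobox gene, read 292, 217 and 254 in Mock and 2632, 3126 and 2930.3 in Vanillin, 3.44 above Mock, with Tlx2 at 3.91, Onecut2 at 2.81, Sox17 at 2.73, α-fetoprotein (Afp) at 3.79 and the proton channel Otop1 at 4.05. Pnliprp2, a second lipase-related gene beside Pnliprp1, was 4.90 above Mock.

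Other single genes were far below Mock. The mucosal chemokine Cxcl17 was 4.29 below Mock, the trefoil factor Tff2 3.15, Smgc 2.38 and the myelin gene Mbp 4.31. In Smgc, 3 of 4 further probes were also called lower and 1 was not called. The brush border protease Mep1a was 2.53 below Mock, the glucocorticoid-inactivating enzyme Hsd11b2 2.47, the deiodinase Dio1 3.09, the carboxylesterase Ces2a 2.25 and the homeobox gene Hoxb8 2.54. Dio1 read 8179, 8153 and 7972 in Mock, 1843, 1902 and 1615 in Sham, and 908, 965 and 937 in Vanillin, with Vanillin the lowest group and no overlap.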
